A study of Mus musculus with 9 samples.

Results

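The genes examined here encode the machinery that copies DNA, 44 genes chosen by symbol and sorted into 10 roles, from the MCM helicase to the enzymes that supply deoxynucleotides. Each of the 44 symbols had 1 entry among the 38926 symbols of every count table, and 44 of 44 passed the filter on low counts, among 12663 genes tested. With the second of 2 hairpins against Syncrip, 30 of the 44 genes were lower than in controls (68.2%, against 24.2% of all genes tested) and 0 were higher (24.4% of all genes). With the first hairpin 11 were lower (25%, against 17.3% of all genes), all of them among those 30, and 3 were higher (6.82%, against 17.4%). The 11 genes lower with both hairpins were Mcm3, Mcm5, Mcm10, Orc2, Orc3, Pola1, Pold1, Pold3, Pole, Rfc1 and Rfc2.

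The cells were a mouse leukaemia carrying the MLL-AF9 fusion, in their tertiary transplant, and all 3 groups share that fusion and that history. They were transduced with hairpin shRNA-1 against Syncrip, with hairpin shRNA-2 against Syncrip, or with a control hairpin, and RNA was taken at day 4 in 3 libraries per group. Syncrip, which codes for an hnRNP-type protein that binds RNA, is tied by the series title to the leukaemia stem cell programme. The control hairpin targets luciferase per the series' design text and is a scrambled one per the sample labels, so its identity is not settled by these sources. The design text describes 9 transductions handled one by one. The sources used here do not say whether the cells of each came from their own mouse, so the p-values cover the spread among cultures of 1 leukaemia model handled one by one.

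DNA replication starts where the origin recognition complex (ORC) sits on DNA and, with CDC6 and CDT1, loads the ring-shaped MCM helicase. Kinases and the GINS complex and CDC45 then switch the helicase on, polymerase alpha with primase lays primers, and polymerases delta and epsilon extend them while held by the PCNA clamp, which the RFC loader closes around DNA. Many of these genes are transcribed around the G1 to S transition under E2F factors and their RB-family repressors, and cycling leukaemia cells keep them active.

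Libraries held 9559638 to 13416141 counts with shRNA-1, 14953491 to 15915940 with shRNA-2 and 13683660 to 19483923 in controls. Levels below are CPM (reads of a gene scaled to a common library size) after TMM scaling, a normalization that evens out differences in library composition, and differences are log2 fold changes ± standard error from edgeR's quasi-likelihood fit. A gene is said to have risen or fallen when its adjusted p was under 0.05. Syncrip had 20.1, 15.9 and 17.3 CPM with shRNA-1, 63.2, 46.3 and 60.4 CPM with shRNA-2 and 241, 231 and 207 CPM in controls, so shRNA-1 left less of it. Ribosomal RNA genes took 12 to 19.3% of the counts with shRNA-1, 6.10 to 15.8% with shRNA-2 and 4.77 to 8.29% in controls. Mitochondrial genes, mt-Rnr1 and mt-Rnr2 included, took 3.71, 4.93 and 9.67% with shRNA-1, 2.18, 4.58 and 4.32% with shRNA-2 and 2.66, 2.83 and 3.08% in controls, so shRNA-1 replicate 3 stood apart. Of 12 mature myeloid markers tested, 9 rose with shRNA-1, and 10 rose and 1 fell with shRNA-2. Their summed level was 29700 to 38400 CPM with shRNA-1, 36300 to 52000 CPM with shRNA-2 and 13100 to 13300 CPM in controls. All 7 defining markers of myeloid leukaemia cells passed the filter, of which 4 fell with shRNA-1 (median -0.37), and 3 fell and 1 rose with shRNA-2 (median -0.14). Their sum was 1030 to 1090 CPM with shRNA-1, 1180 to 1360 CPM with shRNA-2 and 1210 to 1320 CPM in controls. The T cell sum was 0.22 to 0.646 CPM with shRNA-1, 0.742 to 1.66 CPM with shRNA-2 and 0.133 to 0.456 CPM in controls, with Cd3g, Trac and Cd8a at 0, and the 1 gene of the list tested rose with shRNA-2. The sum for stroma and endothelium was 0.329 to 1.31 CPM with shRNA-1, 3.33 to 5.40 CPM with shRNA-2 and 0.304 to 0.994 CPM in controls, with Col3a1 and Pdgfra at 0, and both genes of that list tested rose with shRNA-2. The B cell sum was 10 to 17.8 CPM, with Cd79a at 0 and Cd79b averaging 12.6 CPM with each hairpin and 15.7 CPM in controls. Ribosomal RNA, mitochondrial genes and these markers other than those of B cells thus moved with 1 or both hairpins. Their part in the differences below was not tested, except where a value with ribosomal RNA as a covariate is given. The shRNA-1 and control libraries did not overlap in ribosomal RNA share, so that covariate can hardly be told apart from shRNA-1. Calls lost with it are therefore not put down to ribosomal RNA.

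Promoters of the genes whose results stand out are shown here because many replication genes are known E2F targets. Windows of 250 bases before to 50 bases after the start came from RefSeq on GRCm38.p6 and were found for 37 of the 44 genes. Where a gene had several windows, the first was used. In 30 of the 37 the last 25 bases lay in a GENCODE M21 transcript of the gene, so some starts are uncertain. Capitals mark E2F-type letters on either strand, which are TTCCCGC in one form, TTGGCGC in another, TTCGCGC in the third form and TTGCCGC in the fourth, and each window runs 5′ to 3′ on the gene's own strand. Mcm3, Pola1, Pold1 and Rfc1 fell with both hairpins, Rrm2 fell with shRNA-2, and Rpa3 and Tyms rose with shRNA-1.
Mcm3: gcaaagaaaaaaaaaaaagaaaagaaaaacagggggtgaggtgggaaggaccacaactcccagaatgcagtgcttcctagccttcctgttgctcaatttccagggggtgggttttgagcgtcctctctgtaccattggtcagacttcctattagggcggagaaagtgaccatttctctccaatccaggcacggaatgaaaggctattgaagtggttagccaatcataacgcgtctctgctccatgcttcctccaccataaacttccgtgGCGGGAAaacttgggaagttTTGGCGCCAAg
Pola1: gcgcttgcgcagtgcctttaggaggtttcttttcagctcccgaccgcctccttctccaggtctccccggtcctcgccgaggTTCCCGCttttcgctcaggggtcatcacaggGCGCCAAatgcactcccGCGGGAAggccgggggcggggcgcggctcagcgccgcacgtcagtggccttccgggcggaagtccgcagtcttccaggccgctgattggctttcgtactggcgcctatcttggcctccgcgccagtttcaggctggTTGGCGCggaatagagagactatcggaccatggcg
Pold1: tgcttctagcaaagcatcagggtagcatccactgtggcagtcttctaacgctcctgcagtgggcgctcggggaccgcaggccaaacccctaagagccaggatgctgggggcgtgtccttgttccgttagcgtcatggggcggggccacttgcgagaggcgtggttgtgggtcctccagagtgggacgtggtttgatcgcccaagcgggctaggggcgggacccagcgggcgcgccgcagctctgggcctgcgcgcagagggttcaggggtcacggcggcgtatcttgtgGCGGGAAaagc
Rfc1: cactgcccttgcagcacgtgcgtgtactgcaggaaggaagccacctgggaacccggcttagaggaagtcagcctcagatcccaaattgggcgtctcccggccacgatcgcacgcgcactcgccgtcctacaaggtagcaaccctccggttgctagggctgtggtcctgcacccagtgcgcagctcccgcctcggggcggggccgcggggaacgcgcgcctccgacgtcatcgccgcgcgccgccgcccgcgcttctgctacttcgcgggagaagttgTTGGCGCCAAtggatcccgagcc
Rrm2: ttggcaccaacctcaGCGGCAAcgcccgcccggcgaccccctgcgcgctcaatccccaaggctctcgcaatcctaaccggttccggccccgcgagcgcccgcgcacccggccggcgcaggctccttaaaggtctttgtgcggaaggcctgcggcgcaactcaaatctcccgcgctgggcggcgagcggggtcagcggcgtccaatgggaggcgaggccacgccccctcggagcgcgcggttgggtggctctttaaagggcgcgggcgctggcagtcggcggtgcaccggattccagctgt
Rpa3: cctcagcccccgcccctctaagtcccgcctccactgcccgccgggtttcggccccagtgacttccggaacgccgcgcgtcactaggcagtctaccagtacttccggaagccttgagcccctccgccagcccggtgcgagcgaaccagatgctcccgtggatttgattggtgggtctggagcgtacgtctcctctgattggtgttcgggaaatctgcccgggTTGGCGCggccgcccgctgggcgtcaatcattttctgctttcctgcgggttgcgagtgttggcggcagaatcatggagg
Tyms: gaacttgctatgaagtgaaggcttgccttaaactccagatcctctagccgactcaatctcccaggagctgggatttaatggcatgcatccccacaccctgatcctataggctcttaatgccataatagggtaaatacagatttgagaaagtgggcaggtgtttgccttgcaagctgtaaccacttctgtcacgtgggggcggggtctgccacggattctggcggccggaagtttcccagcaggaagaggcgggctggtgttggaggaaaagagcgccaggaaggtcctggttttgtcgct
The windows lie at chr1:20820263-20820562 (Mcm3, minus strand), chrX:93632106-93632405 (Pola1, minus strand), chr7:44548766-44549065 (Pold1, minus strand), chr5:65335590-65335889 (Rfc1, minus strand), chr12:24708004-24708303 (Rrm2, plus strand), chr6:8259092-8259391 (Rpa3, minus strand), chr5:30073576-30073875 (Tyms, minus strand). Mcm3 has E2F-type letters at 19 and 39 bases from the start, Pola1 at -169, -138, -121 and 15, Pold1 at 39, Rfc1 at 27, Rpa3 at -29 and Rrm2 at -235, all by their first base, and Tyms has none in its window. Such letters were in 22 of 37 windows (59.5%), against 1530 of 8585 windows of all genes tested (17.8%). They were in 7 of the 9 windows of genes that fell with both hairpins, in 17 of 27 (63%) of those that fell with shRNA-2 and in 5 of 10 (50%) of those not called with shRNA-2. The letters CCAAT, on either strand, were in 22 of 37 windows (59.5%), against 39.3% of all genes tested, and overlapped E2F-type letters in Mcm7, Prim1 and Rfc1. The letters TTTGAA, on either strand, were in 5 of 37 (13.5%), against 11.9%. These are matches of letters in a fixed window, and no binding was measured.

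Taken over the 44 genes, messenger RNA for replication was lowest with shRNA-2. Their summed level was 4990, 4970 and 4580 CPM with shRNA-1, 4160, 3420 and 3580 CPM with shRNA-2 and 5900, 5470 and 5430 CPM in controls. The 3 groups did not overlap, and the mean sum was 0.866 of the control with shRNA-1 and 0.665 with shRNA-2. Under shRNA-1, 11 of 44 genes fell (25%) and 3 rose (6.82%), against 17.3% of all genes tested called lower and 17.4% called higher, so the share that fell was not far above that of all genes. With shRNA-2, 30 of 44 fell (68.2%), against 24.2% of all genes called lower, and 0 rose, against 24.4% called higher. Falls with both hairpins numbered 11 (25%), against 9.57% of all genes, and 0 rose with both, against 9.24%. The hairpins share the 3 control libraries, so the falls with both are not independent of each other.

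The median log2 fold change was -0.13 with shRNA-1, against 0.023 over all genes tested, and -0.54 with shRNA-2, against 0.0043. Values were below 0 for 26 of 44 genes with shRNA-1, against 48.2% of all genes, and for 42 of 44 with shRNA-2, against 49.8%, with Gins4 and Pole2 the exceptions there. They were below 0 with both hairpins for 25 of 44, against 32.8%. All 3 libraries lay below all 3 controls for 21 of 44 genes with shRNA-1, against 25.8% of all genes tested, and above for 4, against 26.8%. With shRNA-2 all 3 lay below the controls for 34 of 44, against 28.1%, and above for 0, against 27.3%. In 19 of 44 genes all 6 hairpin libraries lay below all 3 controls, against 14.4% of all genes, and in 0 genes above them, against 12.9%. These are RNA from bulk cultures, in which fewer cells in S phase and less RNA of these genes per cell cannot be told apart. With the share of ribosomal RNA as a covariate, 4 of the 44 genes fell with shRNA-1, against 4.19% of all genes lower. These 4, Orc3, Pold1, Pole and Rfc1, were among the 11 called without it. In that fit 26 of the 44 fell with shRNA-2, against 22.7% of all genes. The falls with shRNA-1 came to 6 of the 44 when shRNA-1 replicate 2 was left out, against 11.9% of all genes. They came to 7 of the 44 when shRNA-1 replicate 3 was, against 12.5%. In both of these fits the share that fell was not far above that of all genes. Without TMM, on total counts, the median log2 fold change of all genes was -0.23 with shRNA-1 and stood at -0.21 with shRNA-2. On that scale 21 of the 44 genes fell with shRNA-1, against 27.4% of all genes, and 37 with shRNA-2, against 33.2%.

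**Figure D1:**
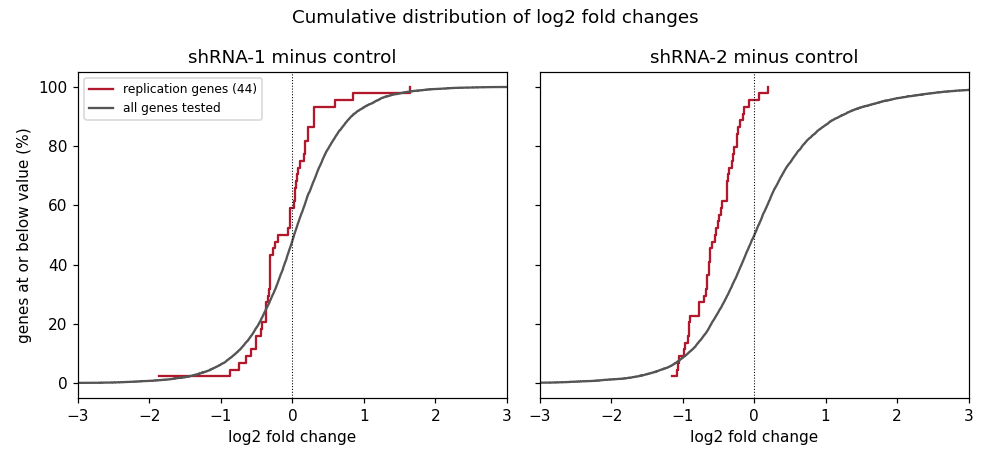
Cumulative share of genes (vertical axis, %) at or below each log2 fold change (horizontal axis) for the 44 replication genes and for all 12663 genes tested, shRNA-1 against control on the left and shRNA-2 against control on the right. The replication genes' line lies to the left of all genes' line over most of its course with shRNA-2, where its median is -0.54, and crosses it with shRNA-1, where its median is -0.13.

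**Figure D2:**
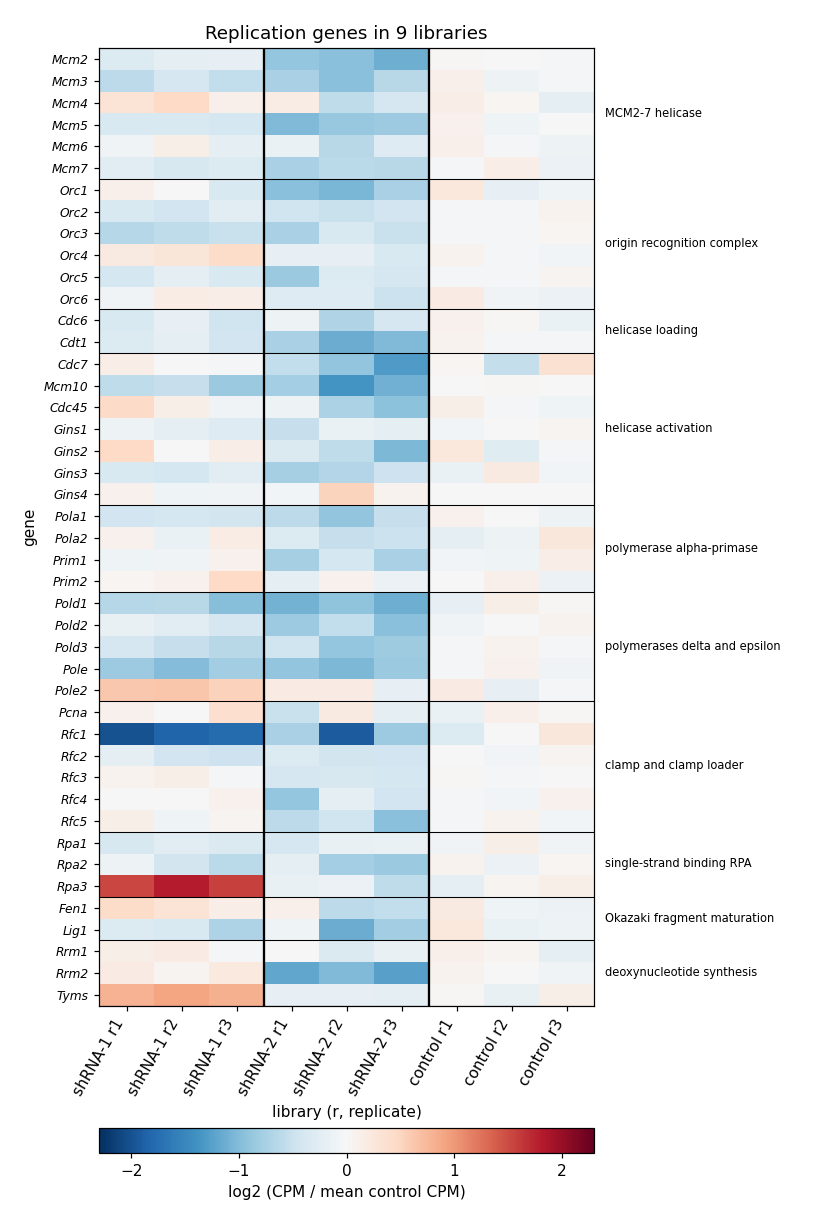
Level of each of the 44 replication genes (rows, grouped by role) in the 9 libraries (columns) as log2 of CPM over the mean control CPM, blue below and red above the control. The shRNA-2 columns are blue in most rows, while Rpa3 and Tyms stand out in red in the 3 shRNA-1 columns and Rfc1 in blue.

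Of the 6 subunits of the MCM2-7 helicase, the ring that unwinds DNA, 4 fell with shRNA-2 (66.7%, against 24.2% of all genes tested). Those that fell with shRNA-1 numbered 2 (33.3%, against 17.3%). Mcm2 had 157, 168 and 172 CPM with shRNA-1, 106, 101 and 90.2 CPM with shRNA-2 and 200, 196 and 192 CPM in controls. It fell 1.98-fold with shRNA-2 (log2 -0.98 ± 0.11, edgeR adjusted p = 3.03e-05) and was not called with shRNA-1 (-0.24 ± 0.11, edgeR adjusted p = 0.105), although its 3 groups did not overlap. Mcm5 had 266, 267 and 258 CPM with shRNA-1, 168, 186 and 190 CPM with shRNA-2 and 364, 316 and 340 CPM in controls. Every hairpin library of Mcm5 lay below every control, and it fell with both (-0.37 ± 0.11 and -0.91 ± 0.11). Mcm5 lost its shRNA-1 call when 1 of 5 libraries was left out, the 3 shRNA-1 libraries and control replicates 1 and 3, with an adjusted p of up to 0.0839. Mcm3 had 365, 423 and 374 CPM with shRNA-1, 329, 285 and 355 CPM with shRNA-2 and 604, 513 and 543 CPM in controls, and also fell with both, by -0.52 ± 0.13 and -0.78 ± 0.13.

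Mcm7 fell with shRNA-2 (-0.66 ± 0.12), where it had 212, 233 and 229 CPM, against 348, 398 and 323 CPM in controls. With shRNA-1 it had 299, 276 and 286 CPM and was not called (-0.31 ± 0.12), but it was called there without shRNA-2 replicate 1 or 2 (edgeR adjusted p down to 0.042). Mcm4 and Mcm6 were called with neither hairpin. For Mcm4 the libraries had 185, 204 and 161 CPM with shRNA-1, 167, 98.7 and 114 CPM with shRNA-2 and 165, 153 and 129 CPM in controls, so shRNA-2 replicate 1 was the highest of its group. Mcm6 showed the same order within shRNA-2, with 345, 247 and 311 CPM, beside 364, 419 and 334 CPM with shRNA-1 and 416, 378 and 355 CPM in controls. Without shRNA-2 replicate 1 both passed as lower with shRNA-2, Mcm4 at an adjusted p of 0.018 and Mcm6 at 0.0267. Summed over the 6 subunits the level was 1640, 1760 and 1590 CPM with shRNA-1, 1330, 1150 and 1290 CPM with shRNA-2 and 2100, 1950 and 1880 CPM in controls, with no overlap between groups.

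Among the 6 subunits of ORC, which marks origins, 5 fell with shRNA-2 (83.3%, against 24.2% of all genes tested). Of these, 2 also fell with shRNA-1 (33.3% of the 6, against 17.3% of all genes). Orc1, the subunit whose protein rises and falls with the cell cycle in mammalian cells, had 20.6, 19.1 and 14.9 CPM with shRNA-1, 9.76, 9.13 and 11.3 CPM with shRNA-2 and 22.5, 16.7 and 17.7 CPM in controls. It fell 1.88-fold with shRNA-2 (-0.91 ± 0.17, edgeR adjusted p = 0.00101), and its shRNA-1 libraries overlapped the controls. Orc3 had 32.7, 34.6 and 36.2 CPM with shRNA-1, 30.9, 40.4 and 36.2 CPM with shRNA-2 and 50.6, 51.1 and 53.5 CPM in controls. It fell by like amounts with shRNA-1 (-0.59 ± 0.12) and shRNA-2 (-0.53 ± 0.12), with all 6 hairpin libraries below the controls. Orc2 had 51.6, 48.9 and 56.1 CPM with shRNA-1, 48.1, 46.5 and 48.6 CPM with shRNA-2 and 63.9, 64.3 and 69.9 CPM in controls, a fall of -0.34 ± 0.11 and -0.47 ± 0.11. Its shRNA-1 call was lost without any of 4 single libraries, shRNA-1 replicates 1 and 2 and control replicates 2 and 3 (adjusted p up to 0.123), and 29.8% of its exon bases lie in the overlapping gene Nif3l1. Orc5 (-0.50 ± 0.15) and Orc6 (-0.36 ± 0.13) fell with shRNA-2 alone. Orc5 lost that call without shRNA-2 replicate 1 or control replicate 3 (adjusted p up to 0.064), and Orc6 lost it without any of 5 libraries, shRNA-1 replicates 2 and 3, shRNA-2 replicate 3 and control replicates 1 and 2 (up to 0.179). Orc4 was called with neither, with 27.1, 28.7 and 31.5 CPM with shRNA-1, 20.6, 20.8 and 18.6 CPM with shRNA-2 and 25, 23 and 22.7 CPM in controls.

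Of the 2 loading factors, Cdt1, which brings MCM to ORC, fell with shRNA-2 and Cdc6, the ATPase that works beside it, was called with neither. Cdt1 had 169, 180 and 154 CPM with shRNA-1, 124, 95 and 103 CPM with shRNA-2 and 221, 204 and 202 CPM in controls. Its 3 groups did not overlap, and the difference was -0.96 ± 0.13 with shRNA-2 (edgeR adjusted p = 9.34e-05) and -0.32 ± 0.13 with shRNA-1 (edgeR adjusted p = 0.0699). Without shRNA-2 replicate 1 or 2 in the fit, Cdt1 was also called lower with shRNA-1 (down to 0.0342). Cdc6 had 56.3, 63.3 and 52.5 CPM with shRNA-1, 66.4, 44.2 and 55 CPM with shRNA-2 and 77, 73.5 and 64.7 CPM in controls. Only shRNA-2 replicate 1 of its 6 hairpin libraries exceeded the lowest control, and without that library Cdc6 passed as lower with shRNA-2 (edgeR adjusted p = 0.00941).

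Of the 7 genes that activate the helicase, 5 fell with shRNA-2 (71.4%, against 24.2% of all genes tested). Only 1 of them, Mcm10, also fell with shRNA-1 (14.3%, against 17.3%), a share no higher than that of all genes. Mcm10, a factor that joins the helicase as it starts to unwind, had 57.5, 59.7 and 47.6 CPM with shRNA-1, 50.3, 33 and 40.1 CPM with shRNA-2 and 85.5, 87.6 and 85.1 CPM in controls. All 6 hairpin libraries lay well under the controls, and it fell 1.57-fold with shRNA-1 (-0.65 ± 0.15) and 2.09-fold with shRNA-2 (-1.06 ± 0.15). Cdc7, the kinase that phosphorylates MCM with its partner DBF4, had 15.4, 14 and 13.7 CPM with shRNA-1, 9.33, 7.42 and 5.6 CPM with shRNA-2 and 14.4, 9.55 and 17.7 CPM in controls. It fell with shRNA-2 (-0.90 ± 0.23, edgeR adjusted p = 0.00733) and stood within the controls with shRNA-1. Cdc45, the helicase cofactor, had 141, 114 and 98.3 CPM with shRNA-1, 96.4, 63.3 and 54.4 CPM with shRNA-2 and 115, 101 and 97.7 CPM in controls. Its fall with shRNA-2 (-0.55 ± 0.20) was lost in 6 of the 9 fits that left out 1 library, those without shRNA-1 replicate 2, shRNA-2 replicate 2 or 3 or any 1 control (adjusted p up to 0.154).

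The 4 GINS subunits, which bridge CDC45 and MCM, did not move as 1. Gins2 fell with shRNA-2 (-0.62 ± 0.19), where it had 30.7, 25.9 and 19 CPM, beside 53.2, 38.7 and 42.8 CPM with shRNA-1 and 46, 31.8 and 38.2 CPM in controls. That call was lost without shRNA-2 replicate 3 or control replicate 1 or 3 (up to 0.0994), and 67.3% of its exon bases lie in the overlapping gene Gse1, so its reads are uncertain. Gins3, the lowest of the 4 by CPM, had 11.8, 11.3 and 12.7 CPM with shRNA-1, 8.77, 9.44 and 10.8 CPM with shRNA-2 and 13.4, 17.2 and 14.3 CPM in controls, and fell with shRNA-2 (-0.63 ± 0.15). Gins1 and Gins4 were called with neither hairpin. Gins4 had 43.9, 65.2 and 48.4 CPM with shRNA-2, spread to the side opposite to most of these genes, beside 49, 43.2 and 43.3 CPM with shRNA-1 and 45.7, 46.3 and 46 CPM in controls. Gins1 had 21.7, 20.1 and 19.2 CPM with shRNA-1, 16.3, 21 and 20 CPM with shRNA-2 and 22.5, 23.5 and 24.4 CPM in controls, all 6 hairpin libraries below the controls, and without shRNA-2 replicate 2 it passed as lower with shRNA-2 (0.0447).

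**Figure D3:**
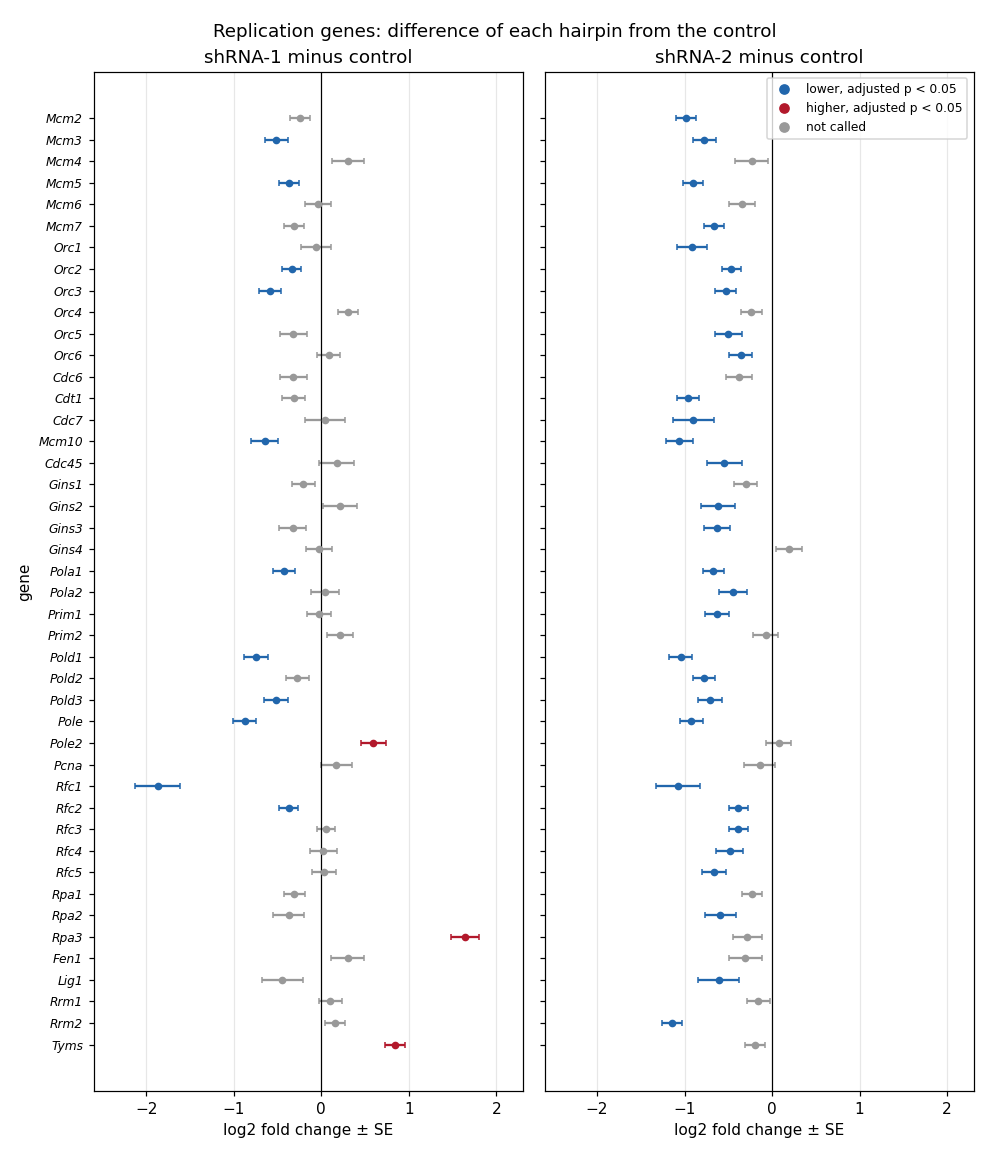
Log2 fold change ± SE (horizontal axis) of each of the 44 replication genes (rows, by role), shRNA-1 against control on the left and shRNA-2 against control on the right, with blue for genes that fell, red for genes that rose and grey for genes not called. Blue points number 11 on the left and 30 on the right, and the 3 red points, Pole2, Rpa3 and Tyms, are all on the left.

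Of the 4 subunits of polymerase alpha with primase, the complex that makes the primers, 3 fell with shRNA-2 (75%, against 24.2% of all genes tested). Only 1 fell with shRNA-1 (25%, against 17.3%), where the median log2 fold change of the 4 was 0.008. Pola1, the catalytic subunit, had 52.2, 53.5 and 53.1 CPM with shRNA-1, 46.8, 37.9 and 49 CPM with shRNA-2 and 76.3, 70.9 and 65.7 CPM in controls. It fell with both (-0.42 ± 0.12 and -0.67 ± 0.12) with no overlap, but dropping any 1 of the shRNA-1 libraries ended the shRNA-1 call, as did dropping control replicate 1 or 2 (adjusted p up to 0.0736). Prim1, the small primase subunit, had 35.5, 35.7 and 40.4 CPM with shRNA-1, 22.3, 28.6 and 22.6 CPM with shRNA-2 and 36.3, 35.5 and 41.9 CPM in controls. With shRNA-1 Prim1 matched the controls and with shRNA-2 it fell (-0.63 ± 0.14, edgeR adjusted p = 0.00241). Pola2, the regulatory subunit, fell with shRNA-2 (-0.45 ± 0.16), with 15.2, 13.1 and 13.4 CPM there, beside 20.4, 17 and 21.4 CPM with shRNA-1 and 16.5, 17.5 and 22.8 CPM in controls. That call was lost without shRNA-2 replicate 2 or 3 or control replicate 2 or 3 (up to 0.187). Prim2, the large primase subunit, was called with neither, with 25.9, 26.8 and 34.3 CPM with shRNA-1, 21.6, 26.9 and 22.9 CPM with shRNA-2 and 25.2, 27 and 22.9 CPM in controls.

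The catalytic subunits of both extending polymerases fell with both hairpins. Pole, the catalytic subunit of polymerase epsilon on the leading strand, had 11.1, 9.98 and 11.4 CPM with shRNA-1, 10.6, 9.67 and 11 CPM with shRNA-2 and 19.4, 21.1 and 18.8 CPM in controls. The 2 hairpins stood at the same level, far from the controls, and the fall was 1.83-fold with shRNA-1 (-0.87 ± 0.13, edgeR adjusted p = 0.000789) and 1.9-fold with shRNA-2 (-0.92 ± 0.13, edgeR adjusted p = 0.000153). Pold1, the catalytic subunit of polymerase delta on the lagging strand, had 45.6, 46.5 and 36.4 CPM with shRNA-1, 34.1, 37.7 and 32.9 CPM with shRNA-2 and 63.6, 79 and 73.5 CPM in controls. It fell 1.68-fold with shRNA-1 (-0.75 ± 0.14) and 2.06-fold with shRNA-2 (-1.05 ± 0.14). Both genes were called lower with both hairpins under each of the 20 alternative settings, among them the fit with ribosomal RNA as a covariate and the 9 that left out 1 library.

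Among the accessory subunits of these polymerases, Pold3 fell with both hairpins, Pold2 with shRNA-2, and Pole2 rose with shRNA-1. Pold3 had 27.3, 24.5 and 22.9 CPM with shRNA-1, 25.9, 19.1 and 20.3 CPM with shRNA-2 and 34.4, 37.7 and 34.7 CPM in controls (-0.52 ± 0.14 and -0.71 ± 0.14), its shRNA-1 call being lost without shRNA-1 replicate 2 or 3 or control replicate 2 (adjusted p up to 0.0613). Pold2 had 60.2, 56.8 and 52 CPM with shRNA-1, 38.1, 45.9 and 35 CPM with shRNA-2 and 64.5, 67.4 and 71.9 CPM in controls (-0.78 ± 0.13 with shRNA-2). Pole2, which partners Pole in the polymerase epsilon complex, had 45.9, 46.3 and 42.9 CPM with shRNA-1, 34.2, 33.9 and 26.3 CPM with shRNA-2 and 34.1, 26.1 and 29.4 CPM in controls. Its shRNA-1 libraries lay above all others (0.59 ± 0.14, edgeR adjusted p = 0.00792), and the call was lost on total counts and with ribosomal RNA as a covariate. Within 1 complex and 1 hairpin, then, Pole fell and Pole2 rose.

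**Figure D4:**
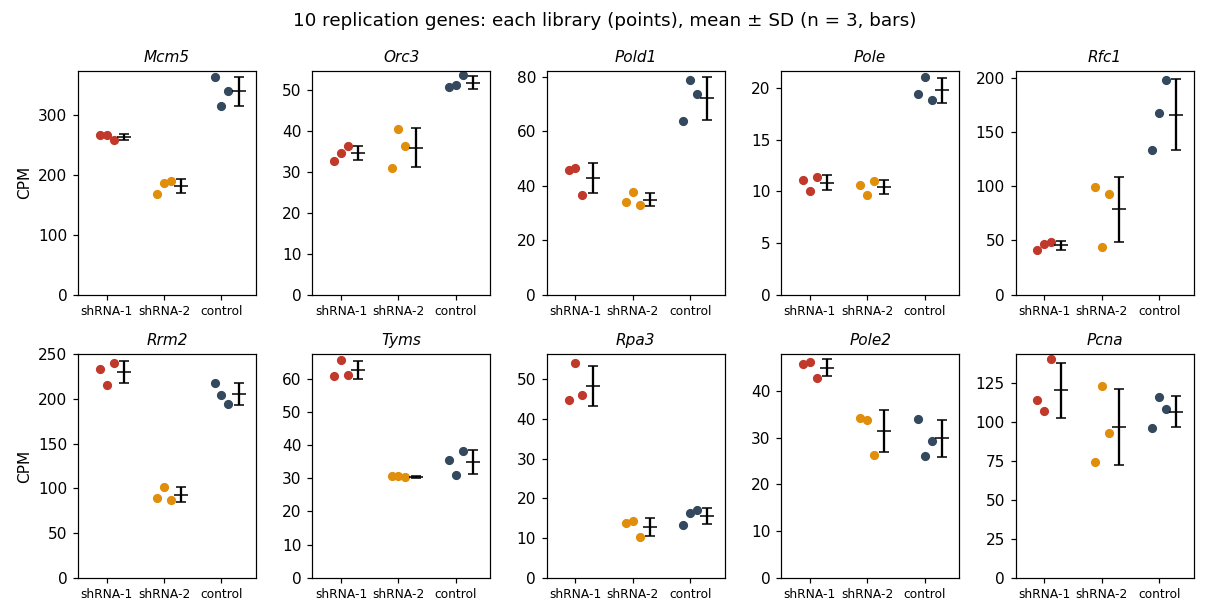
CPM (vertical axes, each from 0) of 10 replication genes in each library (points), with mean ± SD over 3 libraries beside them, for shRNA-1, shRNA-2 and control from left to right. Pole stands at the same low level with both hairpins, Rrm2 is low with shRNA-2 and not with shRNA-1, and Rpa3, Tyms and Pole2 are high with shRNA-1, while Pcna overlaps in all 3 groups.

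The clamp PCNA was called with neither hairpin, and its 5 loader genes all fell with shRNA-2, against 24.2% of all genes tested. Pcna had 114, 107 and 140 CPM with shRNA-1, 74.5, 123 and 92.5 CPM with shRNA-2 and 95.9, 116 and 108 CPM in controls, with differences of 0.17 and -0.14. A processed copy, Pcna-ps2, took 117 to 229 counts per library, so reads of Pcna may be split and its values are uncertain. Rfc1, the large loader subunit, had 41.2, 46.2 and 48.7 CPM with shRNA-1, 99, 44.3 and 93.2 CPM with shRNA-2 and 133, 167 and 198 CPM in controls. All 6 hairpin libraries lay below the controls, shRNA-2 replicate 2 stood with the shRNA-1 libraries, and the fall was 3.66-fold with shRNA-1 (-1.87 ± 0.26, edgeR adjusted p = 0.000473) and 2.1-fold with shRNA-2 (-1.07 ± 0.25, edgeR adjusted p = 0.00404). It was the deepest fall of the 44 genes with shRNA-1, and it was called with both hairpins under each of the 20 alternatives.

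The 4 small loader subunits moved less. Rfc2 had 120, 104 and 101 CPM with shRNA-1, 113, 105 and 104 CPM with shRNA-2 and 142, 134 and 146 CPM in controls, and fell with both (-0.37 ± 0.11 and -0.39 ± 0.11). Its shRNA-1 call was lost without shRNA-1 replicate 2 or 3 or control replicate 1 or 3 (up to 0.0932) and its shRNA-2 call without control replicate 3 (0.0582), and 15.1% of its exon bases lie in the overlapping gene Lat2. Rfc5 had 103, 88.2 and 98.7 CPM with shRNA-1, 62.2, 68.3 and 48.2 CPM with shRNA-2 and 92.9, 99.4 and 90.7 CPM in controls, and fell with shRNA-2 (-0.66 ± 0.14, edgeR adjusted p = 0.00194). Rfc3 was tight within groups, with 63, 65.1 and 58 CPM with shRNA-1, 45.6, 46.2 and 45.3 CPM with shRNA-2 and 60.7, 58.9 and 59.4 CPM in controls, and fell with shRNA-2 (-0.38 ± 0.10). Rfc4 had 17.8, 28.6 and 24.2 CPM with shRNA-2, beside 32.5, 32.7 and 35.1 CPM with shRNA-1 and 32, 31.6 and 35 CPM in controls (-0.48 ± 0.16 with shRNA-2), a call lost without shRNA-2 replicate 1 or 3 or control replicate 3 (up to 0.0829). Exon bases shared with a neighbour came to 12.7% for Rfc4 (Eif4a2) and 10.7% for Rfc5 (Wsb2).

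Replication protein A coats single-stranded DNA as a trimer, and its subunit messages went apart. Rpa3, the smallest subunit, had 44.7, 54.1 and 46 CPM with shRNA-1, 13.8, 14.2 and 10.3 CPM with shRNA-2 and 13.2, 16.2 and 17.1 CPM in controls. The lowest shRNA-1 library held 44.7 CPM, against 17.1 CPM in the highest control, and the rise was 3.11-fold (1.64 ± 0.16, edgeR adjusted p = 6.14e-05), while shRNA-2 was not called (-0.28, edgeR adjusted p = 0.169). No exon base of Rpa3 is shared with another annotated gene, and the rise was called under each of the 20 alternatives. Rpa2 had 348, 282 and 248 CPM with shRNA-1, 324, 222 and 211 CPM with shRNA-2 and 399, 347 and 393 CPM in controls and fell with shRNA-2 (-0.59 ± 0.18). That call was lost without shRNA-2 replicate 2 or 3 or control replicate 1 or 3 (up to 0.0749), and Rpa2 passed as lower with shRNA-1 without shRNA-2 replicate 1 (0.0426). Rpa1, the large subunit, was called with neither, with 98.8, 108 and 102 CPM with shRNA-1, 97.4, 114 and 115 CPM with shRNA-2 and 121, 141 and 121 CPM in controls. All 6 hairpin libraries of Rpa1 lay below its controls, and it passed as lower with shRNA-1 without shRNA-2 replicate 1 or 2 (edgeR adjusted p down to 0.0344).

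Of the 2 genes that finish lagging-strand fragments, Lig1, the ligase, fell with shRNA-2 and Fen1, the flap nuclease, was called with neither. Lig1 had 522, 506 and 397 CPM with shRNA-1, 607, 292 and 370 CPM with shRNA-2 and 764, 581 and 596 CPM in controls. Its shRNA-2 libraries were far apart, replicate 1 lay above 2 of the controls, and the call (-0.61 ± 0.24, edgeR adjusted p = 0.0489) was lost in 8 of the 9 fits without 1 library, all but the one without shRNA-2 replicate 1. Without that library Lig1 also passed as lower with shRNA-1 (edgeR adjusted p = 0.0382). Fen1 had 261, 240 and 216 CPM with shRNA-1, 211, 127 and 131 CPM with shRNA-2 and 224, 181 and 177 CPM in controls, and passed as lower with shRNA-2 without shRNA-2 replicate 1 (edgeR adjusted p = 0.00469). Gm10143 covers 78.8% of the exon bases of Fen1, so its reads are uncertain.

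Of the 3 enzymes of deoxynucleotide supply, Rrm2 fell with shRNA-2, Tyms rose with shRNA-1 and Rrm1 was called with neither. Rrm2, the small subunit of ribonucleotide reductase that limits the enzyme through the cell cycle, had 233, 216 and 240 CPM with shRNA-1, 89.5, 102 and 87 CPM with shRNA-2 and 218, 204 and 194 CPM in controls. It fell 2.21-fold with shRNA-2 (-1.15 ± 0.12, edgeR adjusted p = 1.46e-05), the deepest fall of the 44 genes there, and stood at the top of the control range or above it with shRNA-1 (0.16, edgeR adjusted p = 0.295). Its partner Rrm1, the large subunit, had 211, 218 and 189 CPM with shRNA-1, 191, 153 and 171 CPM with shRNA-2 and 209, 201 and 166 CPM in controls. Tyms, the synthase of thymidylate, had 60.7, 65.6 and 61.1 CPM with shRNA-1, 30.7, 30.5 and 30.2 CPM with shRNA-2 and 35.4, 31 and 38.1 CPM in controls. It rose 1.79-fold with shRNA-1 (0.84 ± 0.12, edgeR adjusted p = 0.000455) and was not called with shRNA-2 (-0.19, edgeR adjusted p = 0.187), although its shRNA-2 libraries all lay below its controls. The rise of Tyms was called under each of the 20 alternatives.

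Set against each other, the hairpins differed in 24 of the 44 genes, with 23 higher in shRNA-1 (52.3%) and 1 lower (2.27%), against 19.7% of all genes tested called higher and 21.3% called lower. All 3 shRNA-1 libraries lay above all 3 shRNA-2 libraries for 25 of 44 genes, against 25.5% of all genes, and below them for 0 genes, against 24.3%. Differences were below 0 for 4 of 44 genes, against 49.7%. The median difference over the 44 was 0.39, against 0.0041 over all genes. The largest differences were in Rpa3 (1.92 ± 0.16, edgeR adjusted p = 6.11e-06), Rrm2 (1.31 ± 0.12, edgeR adjusted p = 8.98e-06) and Tyms (1.04 ± 0.12, edgeR adjusted p = 4.34e-05). The 1 gene lower in shRNA-1 was Rfc1 (-0.80 ± 0.25, edgeR adjusted p = 0.0252), and this call was lost under 7 of the 20 alternatives. Without shRNA-2 replicate 3 the 23 higher genes became 14.

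Of the 23 genes higher in shRNA-1 than in shRNA-2, 15 fell with shRNA-2 and were not called with shRNA-1, namely Mcm2, Mcm7, Cdt1, Cdc7, Cdc45, Gins2, Orc1, Orc6, Pola2, Prim1, Pold2, Rfc3, Rfc4, Rfc5 and Rrm2. For these 15 the difference between the hairpins was itself called. Mcm5 and Mcm10 fell with both and lay lower with shRNA-2. Pole2, Rpa3 and Tyms rose with shRNA-1, and Mcm4, Orc4 and Fen1 were called with neither against the control. Gins3, Orc5, Rpa2 and Lig1 fell with shRNA-2 alone without a called difference between the hairpins, so they are not shown to differ between them. The hairpin that left more Syncrip, shRNA-2, was the one with more replication genes lower, and it also changed more of all genes tested, 48.7% in either direction, against 34.7% with shRNA-1.

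Genes of the same processes outside the 44 were counted in 6 lists, whose shares stand against 17.3% of all genes lower and 17.4% higher with shRNA-1, 24.2% lower and 24.4% higher with shRNA-2, and 9.57% lower with both. Of 28 origin and fork factors tested, 10 fell (35.7%) and 2 rose (7.14%) with shRNA-1, 16 fell (57.1%) and 0 rose with shRNA-2, and 7 fell with both (25%), with medians of -0.31 and -0.55. Top2a, the topoisomerase that unlinks daughter strands, had 501, 471 and 406 CPM with shRNA-1, 262, 155 and 210 CPM with shRNA-2 and 957, 984 and 1100 CPM in controls, and fell by -1.14 ± 0.18 and -2.28 ± 0.19. Atad5, which unloads PCNA, had 16.5, 15.4 and 15.4 CPM with shRNA-1, 23.4, 11 and 20.2 CPM with shRNA-2 and 38.1, 40.2 and 41 CPM in controls, and fell by -1.33 ± 0.22 and -1.12 ± 0.21. Ticrr, which helps CDC45 onto the helicase, fell with both (-0.87 ± 0.23 and -0.74 ± 0.23), as did the helicase gene Recql4 (-1.15 ± 0.30 and -1.02 ± 0.29). Ticrr lost its shRNA-1 call without shRNA-1 replicate 2 (adjusted p = 0.0658) and its shRNA-2 call without shRNA-2 replicate 3 or control replicate 2 (up to 0.0603), and Recql4 lost both without control replicate 3 (0.0631 and 0.0749). With ribosomal RNA as a covariate 1 of these 28 genes fell with both hairpins, against 2.41% of all genes in that fit. Atad5 lost its shRNA-1 call there. The 2 rises became 0 when shRNA-1 replicate 2 was dropped and 1 when any 1 control was. Without 1 library the list had 5 to 13 falls with shRNA-1, with 5 without shRNA-1 replicate 2 or control replicate 3 and 6 without shRNA-1 replicate 3 or control replicate 2. It then had 3 to 11 falls with both, with 3 without shRNA-1 replicate 2 or control replicate 2 or 3, 4 without shRNA-1 replicate 3 and 11 without shRNA-2 replicate 1.

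Of 11 genes of chromatin assembly behind the fork, 3 fell with shRNA-1 (27.3%), 7 with shRNA-2 (63.6%) and 0 rose with either. The 3 that fell with both were Chaf1a, Tonsl and Nasp. Chaf1a, the large subunit of the histone deposition factor CAF-1, had 54.3, 49.8 and 50.6 CPM with shRNA-1, 72.8, 55 and 62.9 CPM with shRNA-2 and 106, 108 and 120 CPM in controls (-1.11 ± 0.13 and -0.81 ± 0.13). Tonsl, a reader of newly made histones, fell by -0.99 ± 0.18 and -1.07 ± 0.17, and the histone chaperone Nasp by -0.46 ± 0.14 and -0.99 ± 0.14. With ribosomal RNA as a covariate Tonsl and Nasp lost their shRNA-1 calls, and Nasp also lost it without any of shRNA-1 replicates 2 and 3 and control replicates 1 and 3 (adjusted p up to 0.0876). Of 17 further genes of nucleotide supply, 3 fell (17.6%) and 2 rose (11.8%) with shRNA-1, 8 fell (47.1%) and 2 rose (11.8%) with shRNA-2, and 2 fell with both (11.8%). The shares that fell with shRNA-1 and with both were near those of all genes. Those 2 were Ctps, which makes CTP (-0.43 ± 0.12 and -1.17 ± 0.12), and Umps, which completes UMP synthesis (-0.31 ± 0.10 and -0.36 ± 0.10). The shRNA-1 calls of both were lost without some single libraries, with adjusted p up to 0.0751 for Ctps (shRNA-1 replicate 1 or 3, control replicate 2 or 3) and 0.121 for Umps (any 1 shRNA-1 library, control replicate 2 or 3), and Umps lost its shRNA-2 call without control replicate 2 (0.0597). With ribosomal RNA as a covariate 0 of these 17 genes fell with both, against 2.41% of all genes in that fit. The 3 falls with shRNA-1 became 0 when shRNA-1 replicate 3 or control replicate 2 or 3 was dropped, and 1 when shRNA-1 replicate 1 or 2 was. The 2 rises with shRNA-1 became 0 when any 1 shRNA-1 library or control replicate 1 or 3 was dropped, and 1 when control replicate 2 was. The 8 falls with shRNA-2 became 5 when control replicate 1 was dropped, and the 2 falls with both became 0 when shRNA-1 replicate 1 or 3 or control replicate 2 or 3 was, and 1 when shRNA-1 replicate 2 was.

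E2F factors regulate G1 to S transcription, and they were listed with RB-family genes and with cyclin, kinase inhibitor and other genes tied to that control. Of 25 tested, 2 fell (8%) and 6 rose (24%) with shRNA-1 (median 0.27), and 8 fell (32%) and 3 rose (12%) with shRNA-2 (median -0.14). Among the 8 E2f genes, E2f3 rose with shRNA-1 (0.49 ± 0.13), E2f6 rose with shRNA-1 (0.40 ± 0.13) and fell with shRNA-2 (-0.52 ± 0.13), and E2f2 fell with shRNA-2 (-0.65 ± 0.13). The 2 rises were lost on total counts, E2f3 also with ribosomal RNA as a covariate, and without some single libraries, for E2f3 shRNA-1 replicate 2 or 3 or control replicate 2 (adjusted p up to 0.0733) and for E2f6 any 1 shRNA-1 library or control replicate 2 or 3 (up to 0.145). E2f1, the best known activator of replication genes, had 116, 82 and 88.9 CPM with shRNA-1, 122, 82.1 and 67.1 CPM with shRNA-2 and 71.1, 69.4 and 72.9 CPM in controls, and was called with neither. It passed as higher with shRNA-1 without shRNA-2 replicate 1 (edgeR adjusted p = 0.0253), and as higher with shRNA-2 without shRNA-2 replicate 3 (edgeR adjusted p = 0.0456). The gene of cyclin E1, Ccne1, had 43.8, 39.7 and 40.8 CPM with shRNA-1, 50.6, 51 and 40.3 CPM with shRNA-2 and 27.2, 22 and 21.6 CPM in controls, and rose with both (0.81 ± 0.14 and 1.00 ± 0.14). Cdkn1a, which encodes the cyclin kinase inhibitor p21, had 373, 517 and 700 CPM with shRNA-1, 873, 1110 and 1040 CPM with shRNA-2 and 234, 290 and 267 CPM in controls, and rose with both (1.01 ± 0.20 and 1.94 ± 0.21). Rbl2, an RB-family repressor (-0.97 ± 0.15 and -0.69 ± 0.14), and Foxm1, a factor of G2 and M genes (-0.67 ± 0.15 and -0.90 ± 0.15), fell with both. With ribosomal RNA as a covariate Cdkn1a and Foxm1 lost their shRNA-1 calls. The 6 rises with shRNA-1 became 3 when shRNA-1 replicate 2 or control replicate 2 was dropped, and the 8 falls with shRNA-2 became 5 when control replicate 3 was.

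Of 9 genes of the replication checkpoint, 0 fell and 3 rose (33.3%) with shRNA-1, and 3 fell (33.3%) and 0 rose with shRNA-2, with medians of 0.41 and -0.24. The 3 rises became 1 without shRNA-1 replicate 2 or 3 or control replicate 2 or 3. Of 24 genes of mitosis, 10 fell (41.7%) and 2 rose (8.33%) with shRNA-1 (median -0.35), 21 fell (87.5%) and 0 rose with shRNA-2 (median -0.73), and 10 fell with both (41.7%). The 2 rises became 1 when shRNA-1 replicate 1 or 2 or control replicate 2 or 3 was dropped. Mki67, which encodes the proliferation antigen Ki-67, had 17.1, 19 and 24.3 CPM with shRNA-1, 45.3, 14 and 36.5 CPM with shRNA-2 and 67, 92.7 and 100 CPM in controls (-2.10 ± 0.34 and -1.43 ± 0.32). Cenpe (-2.49 ± 0.38 and -1.80 ± 0.36) and Kif15 (-1.33 ± 0.25 and -2.57 ± 0.26), both spindle motors, and the kinetochore gene Ndc80 (-0.75 ± 0.15 and -0.78 ± 0.15) also fell with both. With ribosomal RNA as a covariate 1 of the 24 mitosis genes, Cenpe, fell with shRNA-1, against 4.19% of all genes in that fit. No test compared the lists with each other.

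**Figure D5:**
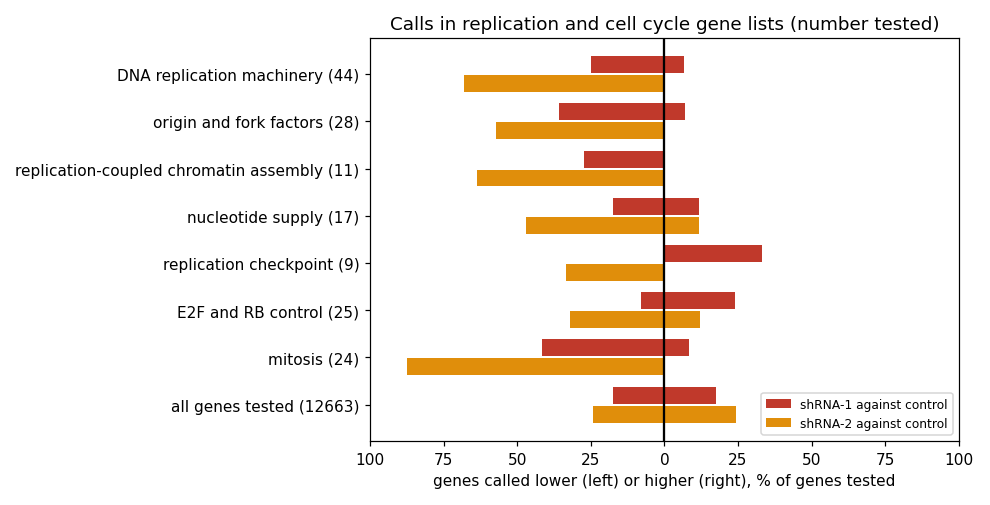
Share of genes tested (horizontal axis, %) called lower (left of 0) or higher (right of 0) in each list, with the number tested in brackets, for shRNA-1 and shRNA-2 against the control. The bars of the 44 replication genes reach 68.2% lower with shRNA-2 and 25% lower with shRNA-1, beside 24.2% and 17.3% for all genes tested.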

How the data were processed

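Gene-level read counts of 9 libraries, 3 each for shRNA-1, shRNA-2 and control, were used as the authors deposited them. Per the submitters' processing notes the tools were STAR 2.3.0e and HTSeq 0.6.0 and the build mm10. Per the labels' protocols cDNA was primed with oligo-dT and random decamers. The sources used here give neither the annotation release nor the strand setting, so where genes overlap, also in antisense, their reads cannot be separated. Counts in several entries of 1 symbol were summed.

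Genes were filtered with filterByExpr (12663 kept, with 0.0908% of the counts removed), scaled by TMM and tested in 1 fit of all 9 libraries with group as the only term, by edgeR 4.0.16's quasi-likelihood test in R 4.3.3. Adjustment of p-values over all genes was that of Benjamini and Hochberg, and calls needed an adjusted p under 0.05. Levels are TMM-scaled CPM with n = 3 per group. The common biological coefficient of variation was 0.165. Libraries of the same group were compared pair by pair, and each pair differed by more than counting noise. The alternatives were DESeq2 size factors, total counts, no filter, at least 5 CPM in 3 libraries, tests by DESeq2 1.42.0 and by limma-voom (limma 3.58.1), the replicate number as a block, only the 2 groups compared, the log2 share of ribosomal RNA (Gm26924, mt-Rnr1 and mt-Rnr2) as a covariate, the transcript length trend taken out and leaving out each library. A fit without the pair shRNA-1 replicate 3 and shRNA-2 replicate 1 was chosen after seeing the data. The pipeline was tested on simulated data.

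Exon overlaps came from GENCODE M21 on GRCm38, the assembly of mm10, and promoter windows from RefSeq. The member genes, roles, lists and tests were chosen with earlier results of these data known. All 44 members were named. Outside them the text names Syncrip, Cdkn1a, the E2f genes and, per list, up to 4 genes called with both hairpins in 1 direction and not overlapping the controls, ranked by the larger of the 2 adjusted p-values.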

Additional observations from a re-analysis of the deposited data

Results flagged for a closer look

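The difference between the hairpins, shRNA-1 minus shRNA-2, was called in 24 of the 44 replication genes by edgeR's quasi-likelihood test, and each of these is listed for that reason. In helicase and loading genes the log2 difference was 0.74 for Mcm2, 0.54 for Mcm4, 0.54 for Mcm5, 0.35 for Mcm7, 0.42 for Mcm10 and 0.64 for Cdt1. In activation and origin genes it was 0.94 for Cdc7, 0.72 for Cdc45, 0.83 for Gins2, 0.85 for Orc1, 0.54 for Orc4 and 0.44 for Orc6. In polymerases and primase it was 0.49 for Pola2, 0.60 for Prim1, 0.51 for Pold2 and 0.52 for Pole2. Among loader subunits it was -0.80 for Rfc1, 0.44 for Rfc3, 0.51 for Rfc4 and 0.70 for Rfc5. It was 1.92 for Rpa3, 0.61 for Fen1, 1.31 for Rrm2 and 1.04 for Tyms.

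Of the 23 positive differences, 14 were called under each of the 20 alternatives. The other 9 were lost under some. Mcm10 was lost under 12 alternatives, Mcm7 under 10, Mcm4 under 8, Rfc4 under 7, Pola2 under 6, Fen1 under 5, Orc6 under 3, Cdc45 under 2 and Pole2 under 1. Leaving out shRNA-2 replicate 3 was among these alternatives for each of the 9, with adjusted p up to 0.164 for Mcm10. The negative difference of Rfc1 was lost without shRNA-1 replicate 1 or 2 or shRNA-2 replicate 1 or 3, with limma-voom and with ribosomal RNA as a covariate, which took it to -0.40. It was also lost without the pair chosen after seeing the data, and its adjusted p reached 0.195 under these alternatives.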

How the results depend on the processing

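Each count was recomputed under 20 alternatives, and no difference of a replication gene that was called changed its sign. Falls with shRNA-1 and falls with both hairpins numbered 11 and 11 as reported, against 17.3 and 9.57% of all genes. They were 21 and 21 on total counts, against 27.4 and 16.7%. With only the 2 groups compared they were 20 and 17, against 21.7 and 10.9%. With ribosomal RNA as a covariate they were 4 and 4, against 4.19 and 2.41%, so all genes moved the same way. The 3 rises with shRNA-1 became 5 with the transcript length trend taken out, against 17% of all genes. They became 4 with at least 5 CPM in 3 libraries (20.8%) and without the pair chosen after seeing the data (17.2%). On total counts they became 2 (8.56%), as with ribosomal RNA as a covariate (6.53%). The 1 gene lower in shRNA-1 than in shRNA-2, Rfc1, became 0 with limma-voom, with ribosomal RNA as a covariate and without the pair shRNA-1 replicate 3 and shRNA-2 replicate 1. Without 1 library, falls with shRNA-1 ranged from 6 to 16, and the fits at those ends had 11.9 and 19.3% of all genes lower. Falls with shRNA-2 ranged from 22 to 32 (18.8 and 24.6% of all genes) and falls with both from 6 to 15 (6.79 and 11.1%). Rises with shRNA-1 stayed at 3, and rises with shRNA-2 and with both stayed at 0. Over the fits without 1 library, genes lower in shRNA-1 than in shRNA-2 ranged from 0 to 1 and genes higher from 14 to 24. Where no cause follows from the number of genes or libraries fitted, the cause was not tested. Correlations of deviations from group means ran from -0.129 to 0.335 for same-numbered libraries, most of them positive. For differently numbered libraries they ran from -0.419 to 0.288. Whether replicate numbers pair the libraries is thus not settled. With the replicate number as a block 14 genes fell and 3 rose with shRNA-1, against 19 and 20.2% of all genes. In that fit 32 fell with shRNA-2, against 26.2%, 13 fell with both, against 11%, and 0 rose with both, against 11%. Falls that passed under all alternatives were Orc3, Pold1, Pole and Rfc1 with shRNA-1 and 21 of the 30 with shRNA-2. Library depth limits the genes at low levels, and 3 libraries per group and 1 leukaemia model limit every statement.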

Other observations

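Per kilobase of exon, control levels of the 44 genes ran from 1.77 to 152 CPM per kb, with a median of 17.3. These levels may also carry a bias of oligo-dT priming toward transcript ends, which was not measured. The log2 difference fell with exon length across genes, with Spearman's rho of -0.33 with shRNA-1 and -0.17 with shRNA-2 over the 44 genes, beside -0.29 and -0.14 over 11990 genes tested. These are correlations across genes, which share libraries and are not replicates. Replicate 1 of shRNA-2 held the highest shRNA-2 value in 20 of the 44 genes (45.5%), beside 38.8% of all genes tested. Control replicate 1 likewise held the highest control value in 20 of the 44 (45.5%), beside 34.4% of all genes.

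By position, 9 of the 44 genes lie on chromosome 5, of which 8 fell with shRNA-2, and 6 lie on chromosome 8, of which 5 fell. Of all 44 genes 68.2% fell with shRNA-2, beside 24.2% of all genes tested. Other chromosomes held fewer of the 44 genes. All 3 on chromosome 4 fell, as did 3 of 4 on chromosome 7 and 2 of 3 on chromosome 16. On chromosome 2 it was 1 of 4 genes, on chromosome 1 it was 2 of 4 and on chromosome 11 it was 1 of 3. The 1 gene on each of chromosomes 10 and X fell, and so did 1 of 2 on each of chromosomes 6, 12 and 19. Genes of 1 complex are spread over several chromosomes, and no test was made of position.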
